A study of Mus musculus with 13 samples.

Results

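The anaphase-promoting complex (APC/C) and its activators were followed through 10 genes of the 22442 listed by ribosome profiling (Ribo-seq): Anapc1, Anapc2, Anapc4, Anapc5, Anapc7, Anapc10, Cdc23 and Cdc27 for subunits of the complex, and Cdc20 and Fzr1 for the proteins that activate it. The members were chosen by name, as parts of the complex, with earlier results of these data known, and the rule itself uses no measured value. Ribo-seq counted ribosome-protected fragments (RPFs, footprints of translating ribosomes) on coding sequence in mouse oocytes at the germinal vesicle (GV) stage, before meiosis resumes, and at metaphase II (MII), the stage at which the ovulated egg is arrested. There were 3 WT GV, 3 Nat10-ZcKO GV, 2 WT MII and 3 Nat10-ZcKO MII libraries of about 100 oocytes each, from hormone-primed females of 21 days on a C57BL/6J background. MII oocytes came from females that had also received hCG. In the paper, most superovulated Nat10-ZcKO oocytes had stopped at metaphase I, a stage before MII. How MII oocytes were picked for these libraries is not given in the sources used here. In Nat10-ZcKO (genotype Nat10 lox/- with Zp3-Cre), Zp3-Cre deletes floxed Nat10 in growing oocytes of primary follicles. The paper saw NAT10 protein gone from oocytes and kept in granulosa cells. The genotype as written also carries a null allele, and the genotype of the WT females is not given in the sources used here. The design text of the series also names tamoxifen injections over 3 days, which the methods give for fibroblast lines and not for these oocytes, so the time at which Nat10 was lost is uncertain. NAT10 is the enzyme that places N4-acetylcytidine (ac4C) on RNA. 1 anti-ac4C and 1 anti-IgG library (acRIP-seq), each from about 2000 WT GV oocytes, measured the RNA held by either antibody. How oocytes were pooled over animals is not given in the sources used here, so p-values measure the spread between these libraries, which may be technical.

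The APC/C is a large ubiquitin ligase that marks securin and B-type cyclins for destruction and so lets chromosomes separate. Anapc2 (cullin) and Anapc11 (RING) form its catalytic core, Anapc1, Anapc4 and Anapc5 its platform, and Cdc27, Cdc16, Cdc23 and Anapc7 a lobe of tetratricopeptide-repeat (TPR) subunits to which activators bind, while Anapc10 helps to hold substrates. In mouse oocytes Fzr1 (CDH1) is the activator known for keeping cyclin B1 low during the long GV arrest, and Cdc20 is the activator required at the metaphase-to-anaphase transition. MII eggs wait with the APC/C held back by EMI2 (Fbxo43), and much of what is translated at that stage is drawn from stored maternal mRNA.

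Libraries were shallow, with 4815 to 279464 RPF counts, and 3 of them stood apart. WT MII replicate 2 had 4815 counts, none on any of the 10 members, and 10 of 12 oocyte markers were at 0. Nat10-ZcKO GV replicate 1 had 0.0142% of its counts on 12 oocyte markers and replicate 2 had 1.49%, against 5.66% to 7.65% in WT GV and 11.02% in Nat10-ZcKO GV replicate 3. In replicate 1, 9 of those 12 markers were at 0, so that library went against its label. The same 2 libraries had 1.501% and 0.323% of their counts on adipocyte markers (12 measured), where WT GV had 0.0344% to 0.0437%. The other MII libraries held 1.18% to 1.47% on oocyte markers. Granulosa and cumulus markers took 0% to 0.819% over all 11 libraries, but which of them were found differed by stage. Amh had 216 counts over the WT GV libraries and 1 over WT MII, while Ptx3 had 0 and 285 and Tnfaip6 0 and 75. In Nat10-ZcKO, Amh had 156 counts in GV and 6 in MII, Ptx3 2 and 410, and Tnfaip6 0 and 161. Inha was found at both stages (1088 and 125 counts in WT). The part of somatic cells in the stage changes was not tested. Nat10 itself had 1 to 11 counts a library, 3 to 11 in WT GV and 1 to 5 in Nat10-ZcKO GV, which is too few to check the genotype labels. Values below are given with and without the 3 libraries, called here the libraries that stand apart. Without them WT MII and Nat10-ZcKO GV hold 1 library each. A fit within 1 genotype or 1 stage then takes its spread from the other group alone, and its calls are given as a description.

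The members had footprints at a low but measurable level. Their summed level was 626 to 798 counts scaled to the library total (CPM) in WT GV, 552 to 1015 in Nat10-ZcKO GV, 1023 for WT MII replicate 1 and 879 to 1309 in the Nat10-ZcKO MII libraries. Cdc20 had the most counts (336 over the 11 libraries), followed by Anapc2 (208), Anapc1 (155), Anapc7 (137), Cdc27 (135), Fzr1 (117), Anapc5 (69), Anapc4 (59), Cdc23 (33) and Anapc10 (30). Counts of this size limit what can be seen. A count of 0 allows up to 3 counts, which is 10.7 CPM in the deepest library and 623 CPM in WT MII replicate 2. In these bulk libraries, fewer oocytes and less RNA per oocyte cannot be told apart. Footprints follow both the amount of an mRNA and its translation. No RNA level was set beside them here, so the part of either in the changes below was not tested.

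Per coding length, which is the scale on which genes can be compared, Fzr1 led the members in GV and Cdc20 led them in MII. In WT GV the mean levels were 94.0 TPM (the level per coding length, scaled to the library) for Fzr1, 85.5 for Anapc2, 78.0 for Anapc7 and 72.4 for Cdc20, and these neighbours overlapped between libraries. The lowest Cdc20 library (54.4 TPM) lay above the highest of Anapc5, the next in order (mean 29.8, highest 37.4 TPM). Anapc10, Anapc1, Cdc27, Anapc4 and Cdc23 followed at mean levels of 23.9, 22.9, 16.9, 16.1 and 5.13 TPM, each overlapping the next. In Nat10-ZcKO GV the order ran from Fzr1 (123 TPM) and Anapc2 (99.8 TPM) down to Anapc10 (5.38 TPM), with every pair of neighbours overlapping. In Nat10-ZcKO MII, Cdc20 stood at a mean of 384 ± 123 TPM (SD, n = 3), its lowest library (258) above the highest of Cdc27 (113 TPM, mean 93.6). Fzr1 was sixth there, at a mean of 27.4 TPM. In WT MII replicate 1 alone, Cdc20 was at 301 TPM, Anapc10 at 138 TPM on 8 counts, Cdc27 at 92.4 TPM and Fzr1, the lowest member, at 13.0 TPM.

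The loci were read from GENCODE M21 on GRCm38, the build that mm10 names. Cdc20 lies on the minus strand of chromosome 4 (118432901 to 118437352), Fzr1 on the minus strand of chromosome 10 (81366222 to 81378516) and Cdc27 on the minus strand of chromosome 11 (104502745 to 104550620). All counted fragments are on coding exons. Some members share sequence with other places in the genome. Of the 28-base words in the coding sequence of Cdc20, 38% also occur elsewhere, as do 44.1% of those of Anapc10, 18.2% of those of Anapc5 and 0.565% of those of Anapc2, while the other 6 members have none. Fragments on such words can be dropped or placed wrongly, and the handling of multiply mapped fragments is not given in the sources used here, so the levels of Cdc20, Anapc10 and Anapc5 are uncertain. The coding sequence of Cdc23 overlaps that of Kif20a on the other strand, and whether counting used strand is not stated, so the 2 genes cannot be told apart there.

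Because translation of stored mRNA during maturation is known to turn on cytoplasmic polyadenylation, the ends of the 3′UTRs were searched on the sense strand for the cytoplasmic polyadenylation element (TTTTAT or TTTTAAT) and for the polyadenylation hexamer AATAAA, in the last 100 bases, or in the whole 3′UTR where it is shorter. One GENCODE M21 transcript was used for each gene, and those of Anapc5 and Cdc27 are not marked as principal in the annotation. Of the 10 members, Cdc20 alone held the element, in 2 copies of TTTTAT that overlap by 1 base and start 40 and 35 bases before the end of a 3′UTR of 62 bases. Over 21024 genes, 17.1% held one of the 2 element forms in that window, and 63.7% held AATAAA. Cdc27, whose footprints rose with those of Cdc20, held AATAAA 21 bases before its end and no element in this window, and no search reached further into its 3′UTR of 2853 bases. Fzr1, with a 3′UTR of 1287 bases, held none of the 3 motifs in its last 100 bases, and neither did Anapc2, Anapc4, Anapc7 and Anapc10. AATAAA was also held by Anapc1 (23 bases before the end), Anapc5 (22 and 7) and Cdc23 (46 and 42), which were not called higher at MII. Whether any of these motifs had a part in the stage changes was not tested. The 2 stretches below carry these letters for the 2 members that rose. They run 5′ to 3′, with the element and the hexamer in capitals, at chr4:118432911-118432940 (minus strand) and chr11:104502745-104502774 (minus strand). A match is a description of the sequence, not a tested site.
Cdc20: TTTTATTTTATtttttctAATAAAgttcgt
Cdc27: gaaaatccaAATAAAttacttttgaaagca

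Footprints of the activators moved in opposite directions between GV and MII. Cdc20 was at 82.5, 107 and 62.4 CPM in the 3 WT GV libraries and at 349 CPM in WT MII replicate 1. In Nat10-ZcKO it was at 70.8, 0 and 46.9 CPM in GV and at 585, 286 and 457 CPM in MII (mean 443 ± 150, SD, n = 3). The 4 MII libraries with counts on the members all lay above the 6 GV libraries, and WT MII replicate 2, at 0 counts, did not. Fzr1 was at 55.0, 122 and 146 CPM in WT GV and at 14.8 CPM (2 counts) in WT MII replicate 1. In Nat10-ZcKO, Fzr1 was at 165, 135 and 105 CPM in GV and at 53.2, 27.3 and 12.5 CPM in MII (mean 31.0 ± 20.6, SD, n = 3). The GV and MII libraries did not overlap for Fzr1, although the nearest pair, at 55.0 and 53.2 CPM, came from 8 and 10 counts.

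**Figure D1:**
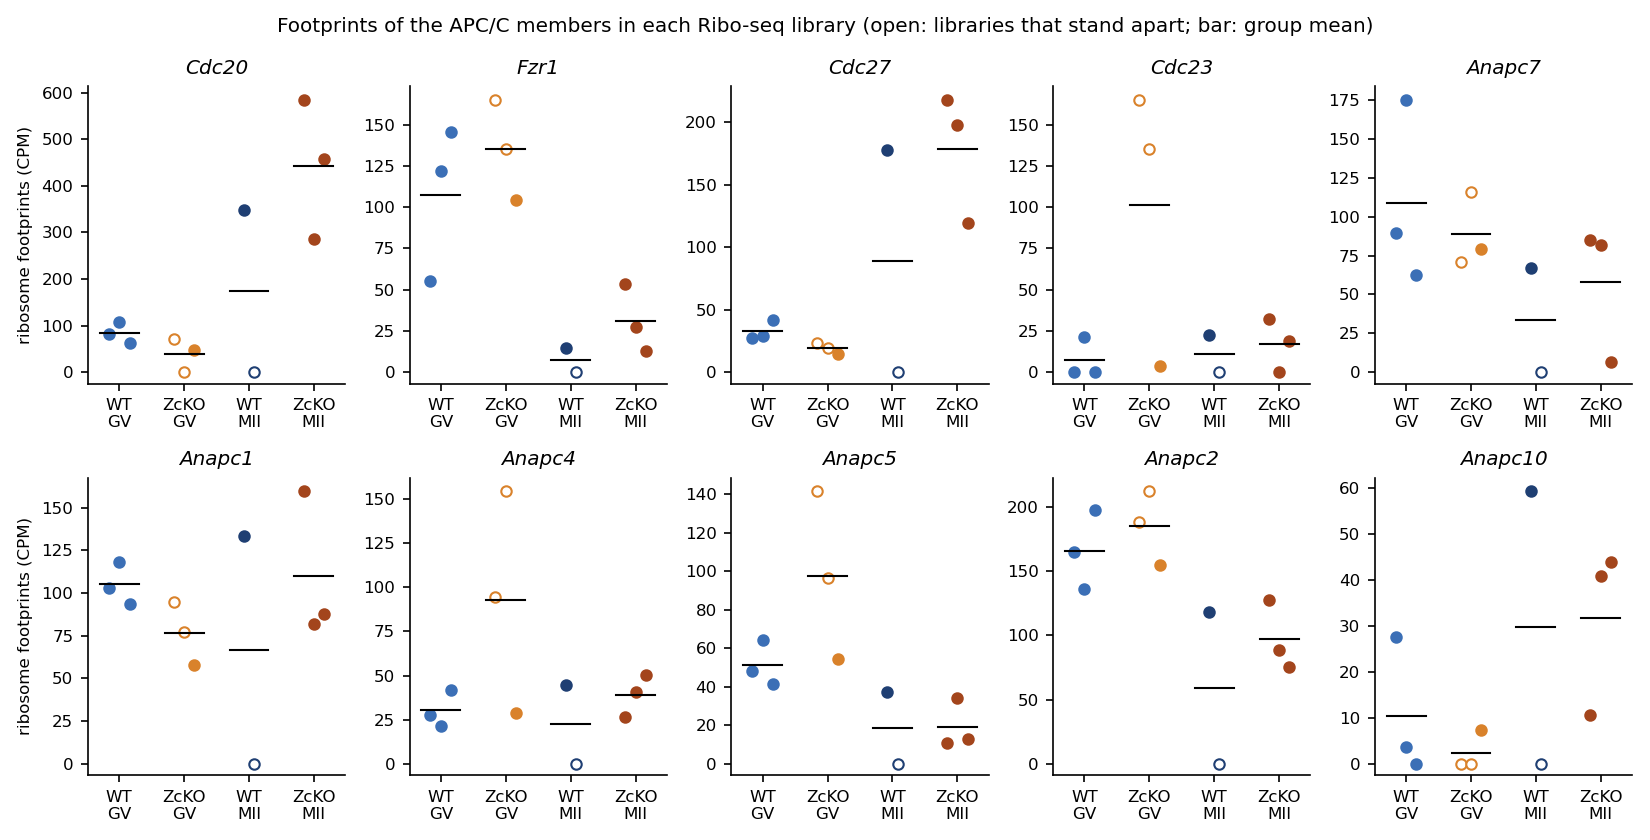
Footprints of each member in CPM (y axis, linear, a different range in each panel) by group (x axis), 1 point a library, with the group mean as a bar and open points for the 3 libraries that stand apart. Cdc20 and Cdc27 lie higher in the MII libraries than in the GV libraries, with WT MII replicate 2 at 0 in every panel, and Fzr1 lies lower.

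The WT fit of MII against GV (edgeR quasi-likelihood test with Benjamini-Hochberg adjustment, as for all adjusted p below unless another tool is named) gave Cdc20 a log2 fold change of 2.08 ± 0.64 (SE, adjusted p = 0.013) over the 5 WT libraries. Without WT MII replicate 2 it was 2.04, with 1 MII library left and no spread between MII libraries to measure. With all 5 libraries it did not pass with DESeq2 (0.90, adjusted p = 0.67) or with no filter (1.02, adjusted p = 0.76). In Nat10-ZcKO, which shares no library with the WT fit, the change was 3.16 ± 0.84 (adjusted p = 0.030), and 2.92 with GV replicate 3 as the only GV library. With all 11 libraries and genotype as a covariate, Cdc20 rose by 2.46 ± 0.69 on the log2 scale (adjusted p = 0.0031). Fzr1 fell by 2.24 ± 0.67 on the log2 scale in Nat10-ZcKO (adjusted p = 0.040), and over both genotypes its log2 fold change was -2.30 ± 0.64 (adjusted p = 0.0030). Over both genotypes the filter kept Fzr1 through the GV libraries. It dropped Fzr1 without the libraries that stand apart, and when any 1 GV library other than WT GV replicate 1 was left out, so no value exists there. In WT its log2 fold change was -2.44 with an SE of 1 and did not pass with all 5 libraries (adjusted p = 0.062), and it was -2.70 without WT MII replicate 2. Over both genotypes with no filter, neither Cdc20 (2.58, adjusted p = 0.18) nor Fzr1 (-2.25, adjusted p = 0.16) passed by edgeR. With at least 10 counts in total, Cdc20 (2.63, adjusted p = 0.072) and Fzr1 (-2.15, adjusted p = 0.083) did not pass either. DESeq2 called both there (2.01, adjusted p = 0.0069, and -2.75, adjusted p = 0.00011). Changes are relative to the fit's scaling. The median log2 fold change of all genes tested in WT was -0.44 with TMM and -0.77 when scaled by library size only, and with the latter scaling both Cdc20 (1.80, adjusted p = 0.0020) and Fzr1 (-2.82, adjusted p = 0.0054) passed in WT.

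Set against each other within a library, the activators give a value that no scaling between libraries can move. Cdc20 made up 60.0%, 46.9% and 30% of the footprints on Cdc20 and Fzr1 in the WT GV libraries, and 30%, 0% (0 of 7 counts) and 31.0% in Nat10-ZcKO GV. In MII its share was 95.9% in WT replicate 1, and 91.7%, 91.3% and 97.3% in Nat10-ZcKO. The highest GV share, 60.0% on 20 counts, has an exact (Clopper-Pearson) 95% interval of 36.1% to 80.9%, and the lowest MII share, 91.3% on 46 counts, has one of 79.2% to 97.6%. Pooled counts give 46.2% (36.3% to 56.2%) in WT GV, 27.1% (16.4% to 40.3%) in Nat10-ZcKO GV and 93.4% (89.4% to 96.2%) in Nat10-ZcKO MII. These intervals cover counting error only, and PCR copies of one footprint were not told apart. The share was chosen after the levels had been seen and is given as a description.

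**Figure D2:**
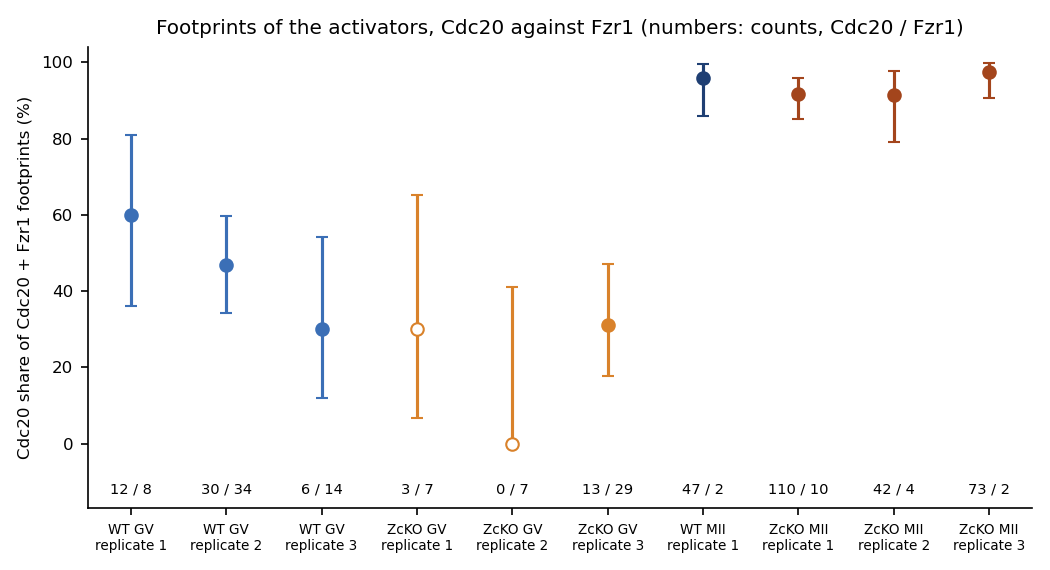
Share of Cdc20 in the summed footprint counts of Cdc20 and Fzr1 (y axis, percent) for each Ribo-seq library with counts on either (x axis), with exact 95% intervals as bars, the counts printed below, and open points for Nat10-ZcKO GV replicates 1 and 2. GV libraries run from 0% to 60.0% and MII libraries from 91.3% to 97.3%.

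Among the TPR subunits, Cdc27 (APC3), which takes part in activator binding, moved with Cdc20. Its footprints were at 27.5, 28.6 and 41.6 CPM in WT GV, and at 178 CPM in WT MII replicate 1. In Nat10-ZcKO they were at 23.6, 19.3 and 14.4 CPM in GV and at 218, 198 and 119 CPM in MII (mean 178 ± 52.3, SD, n = 3). Every MII library but WT replicate 2 lay above every GV library. In Nat10-ZcKO the log2 fold change was 3.00 ± 0.71 (adjusted p = 0.022), and 3.25 without the libraries that stand apart. In WT, Cdc27 was left out by the filter on low counts when WT MII replicate 2 was in the fit. Without that library, Cdc27 changed by 2.56. It had 4, 8 and 4 counts in WT GV and 24 in WT MII replicate 1, so the filter kept it through that MII library. With no filter and all 5 WT libraries, its change of 1.55 ± 1.26 did not pass (adjusted p = 0.69).

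Of the other TPR subunits among the members, Anapc7 was not called between stages with all libraries, and Cdc23 did not pass the filter on low counts. With no filter over both genotypes, Cdc23 was at -0.81 ± 0.93 (adjusted p = 0.61). Anapc7, a subunit at the tip of the lobe, was at 89.4, 175 and 62.4 CPM in WT GV and 66.7 CPM in WT MII replicate 1, with 70.8, 116 and 79.4 CPM in Nat10-ZcKO GV and 85.1, 81.8 and 6.26 CPM in Nat10-ZcKO MII. Its stage change of -0.83 ± 0.59 over both genotypes did not pass (adjusted p = 0.25). Cdc23 (APC8) had 0, 6 and 0 counts in WT GV, 3 in replicate 1 of WT MII, while the 3 Nat10-ZcKO MII libraries had 6, 0 and 3. In Nat10-ZcKO GV it had 7, 7 and 1 counts, so that its 2 highest levels, 165 and 135 CPM, were those of the 2 libraries with few oocyte markers and many adipocyte markers. The part of those libraries' makeup in this value was not tested.

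Of the platform subunits, Anapc1 was not called by edgeR between stages with all libraries, and Anapc4 and Anapc5 did not pass the filter on low counts. Anapc1, the largest scaffold, was at 93.6 to 118 CPM in WT GV and 134 CPM in WT MII replicate 1, at 57.7 to 94.4 CPM in Nat10-ZcKO GV and at 160, 81.8 and 87.7 CPM in Nat10-ZcKO MII. GV and MII overlapped, and the stage change over both genotypes was 0.28 ± 0.58 (adjusted p = 0.72). Anapc4 was at 21.5 to 41.6 CPM in WT GV, 44.5 CPM in replicate 1 of WT MII and 26.6 to 50.1 CPM in Nat10-ZcKO MII. In Nat10-ZcKO GV, Anapc4 was at 94.4, 155 and 28.9 CPM, again highest in the 2 libraries with few oocyte markers. Anapc5 was at 48.1, 64.4 and 41.6 CPM in WT GV and 37.1 CPM in WT MII replicate 1, and at 142, 96.7 and 54.1 CPM in Nat10-ZcKO GV against 10.6, 34.1 and 12.5 CPM in Nat10-ZcKO MII. No GV library of Anapc5 lay below an MII library, and the tools differed on it. With no filter edgeR gave a log2 fold change of -1.56 ± 0.85 over both genotypes (adjusted p = 0.31), and with at least 10 counts in total -1.47 ± 0.82 (adjusted p = 0.23). DESeq2, which tested all 10 members, gave -2.10 ± 0.65 (adjusted p = 0.0081).

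In the catalytic module, Anapc2 (the cullin subunit) was at 165, 136 and 198 CPM in WT GV and 119 CPM in WT MII replicate 1. In Nat10-ZcKO it was at 189, 213 and 155 CPM in GV and at 128, 88.6 and 75.1 CPM in MII. Its GV libraries lay above its MII libraries, but the change over both genotypes, -0.92 ± 0.61, did not pass (adjusted p = 0.21). DESeq2 gave -1.32 ± 0.37 (adjusted p = 0.0034). Anapc10, a small subunit at which substrates are held, went from 4, 1 and 0 counts in WT GV and 0, 0 and 2 in Nat10-ZcKO GV to 8 in replicate 1 of WT MII and to 2, 6 and 7 in Nat10-ZcKO MII. These counts are near the limit of what the libraries can show. DESeq2 gave Anapc10 a change of 1.82 ± 1.16 (adjusted p = 0.21).

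**Figure D3:**
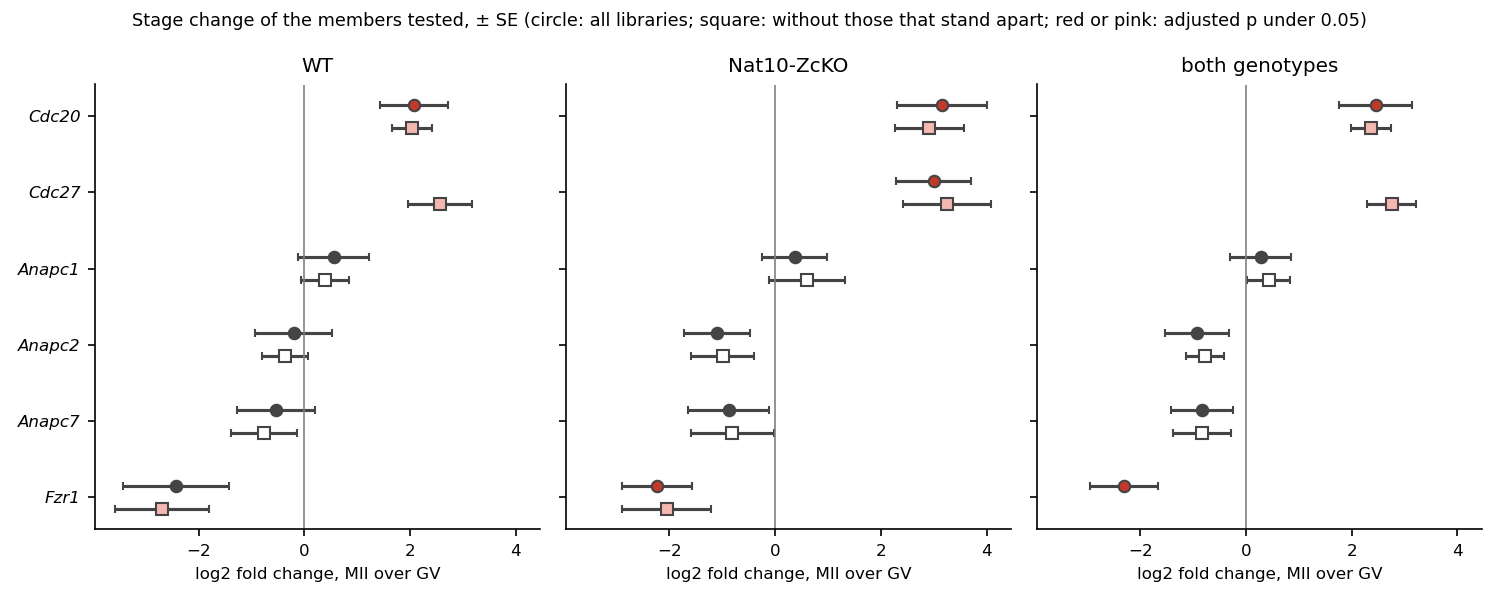
Log2 fold change of MII over GV (x axis) with SE bars for the 6 members tested by edgeR (y axis), in WT, in Nat10-ZcKO and over both genotypes, with all libraries (circles) and without those that stand apart (squares), filled red or pink where the adjusted p was under 0.05. In each of the 3 fits Cdc20 lies between 2.04 and 3.16, Fzr1 between -2.70 and -2.05, and Anapc1, Anapc2 and Anapc7 pass in none. A missing symbol is a member that did not pass the filter on low counts.

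In counts, 5 of the 10 members passed the filter in WT, and 1 of them was called higher and 0 lower in MII, against 9.98% and 11.5% of all 2045 genes tested. Without WT MII replicate 2, 2 of 6 were higher and 1 lower, against 20.9% and 24% of 3264 genes. In Nat10-ZcKO, 2 of the 6 tested were higher and 1 lower, against 10.2% and 6.02% of 2225 genes, and the same counts without GV replicates 1 and 2 stood against 19% and 19.6% of 3741 genes. Over both genotypes, 1 of 5 was higher and 1 lower, against 15.2% and 24.5% of 2000 genes. Without the libraries that stand apart, 2 of 5 were higher and 0 lower, against 33.9% and 36.3% of 2185 genes. The stage thus moved a large share of all genes, and the members' counts are small beside it. The filter kept Cdc20 and Cdc27 in Nat10-ZcKO, and Cdc27 in WT without MII replicate 2, through the MII libraries and Fzr1 through the GV libraries, so a gene kept in this way had to differ. With no filter, when all 10 members were tested in Nat10-ZcKO, Cdc20 (3.86, adjusted p = 0.0083) and Cdc27 (3.70, adjusted p = 0.018) passed and Fzr1 (-1.50, adjusted p = 0.46) did not. In WT with no filter, 0 of 10 members and 0 of 12057 genes were called by edgeR, with 290 genes up and 699 down by an unadjusted p under 0.05, while DESeq2 called 411 genes and 0 members. In Nat10-ZcKO, leaving out any 1 MII library left 0 of 3037 to 3168 genes called by edgeR, with adjusted p of 0.077 to 0.13 for Cdc20, 0.078 to 0.12 for Cdc27 and 0.18 to 0.29 for Fzr1. Fzr1 also lost its call in Nat10-ZcKO without GV replicate 2 (adjusted p = 0.068) or GV replicate 3 (adjusted p = 0.082). In WT, Cdc20 was no longer called without GV replicate 1 (adjusted p = 0.065) or GV replicate 3 (adjusted p = 0.31), was not kept by the filter without GV replicate 2, and turned to -6.66 when WT MII replicate 2 was the only MII library, a fit in which all 5 members tested were called lower.

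Around the complex, Bub1b and Mad2l1, which act in the checkpoint that restrains CDC20, were called higher at MII over both genotypes. With no filter on low counts neither passed there. Of 6 further subunits, 1 was tested in each stage fit with all libraries (Anapc11 or Anapc16) and 0 were called. Without the libraries that stand apart, 2 were tested in WT, 3 in Nat10-ZcKO and 1 over both genotypes, and 0 were called. Anapc11, the RING subunit that binds the E2 enzyme, was at 34.4 to 72.8 CPM in WT GV, 38.7 to 70.8 in Nat10-ZcKO GV, 81.6 for WT MII replicate 1 and 53.2, 88.6 and 6.26 CPM in Nat10-ZcKO MII. In the same order of groups, Anapc16 was at 27.5 to 93.6, 0 to 57.7, 29.7 and 6.26 to 21.3 CPM. The small subunit Anapc13 was at 20.6 to 53.7, 0 to 65.0, 7.42 and 6.82 to 37.6 CPM. Cdc16, a TPR subunit, was at 20.8 to 35.8, 0 to 23.6, 7.42 and 0 to 5.32 CPM. GV and MII ranges overlapped for the first 3 of these genes and, within Nat10-ZcKO, for Cdc16. Of 11 E2 enzymes, inhibitors and checkpoint genes, 3 were tested over both genotypes, and 2 were called higher and 0 lower, against 15.2% and 24.5% of all genes. Without the libraries that stand apart, 4 of 5 were higher and 0 lower, against 33.9% and 36.3% of all genes, with 3 of 7 higher in WT (against 20.9%) and 3 of 6 in Nat10-ZcKO (against 19%). Bub1b (BUBR1), a checkpoint protein that binds and inhibits CDC20, was at 165, 172 and 281 CPM in WT GV and 144 to 445 CPM in Nat10-ZcKO GV. In MII it was at 5451 CPM in WT replicate 1 and 4314 to 6831 CPM in Nat10-ZcKO. Its change was 4.15 ± 1.14 (adjusted p = 0.0025), and in WT alone 4.31 ± 1.70 did not pass (adjusted p = 0.051). Without WT MII replicate 2, which leaves 1 WT MII library, the change in WT was 4.85. Mad2l1 (MAD2), which with BUBR1 forms the mitotic checkpoint complex, rose by 2.43 ± 0.62 on the log2 scale (adjusted p = 0.0011). Mad2l1 was at 10.4 to 35.8 CPM in WT GV and 0 to 96.7 in Nat10-ZcKO GV. In MII it was at 237 CPM in WT replicate 1 and 170 to 313 in Nat10-ZcKO, so the filter kept it mostly through the MII libraries. Fbxo43 (EMI2), the inhibitor that holds the MII arrest, passed the filter with all libraries in the Nat10-ZcKO stage fit only, where it rose by 4.52 ± 0.90 (adjusted p = 0.015). It had 2 counts over the 3 Nat10-ZcKO GV libraries, so the filter kept it through the MII libraries. With no filter its change there was 5.17 ± 1.17 (adjusted p = 0.0020), and in WT with no filter 1.80 ± 1.27 did not pass (adjusted p = 0.66). Its levels were 10.4 to 41.2 CPM in WT GV, 0 to 7.22 in Nat10-ZcKO GV, 193 for WT MII replicate 1 and 119 to 208 over the Nat10-ZcKO MII libraries. Mad1l1, Bub3, Ube2c and Mad2l1bp were tested in at least 1 stage fit with all libraries and passed in none. In WT GV, Nat10-ZcKO GV, WT MII replicate 1 and Nat10-ZcKO MII in turn, the checkpoint gene Mad1l1 was at 55.0 to 122, 23.6 to 116, 44.5 and 31.3 to 63.8 CPM. In that order Bub3 was at 20.8 to 103, 68.6 to 77.4, 29.7 and 43.8 to 69.2 CPM. Ube2c, the E2 enzyme that starts ubiquitin chains, was at 34.4 to 114, 0 to 116, 22.2 and 31.3 to 53.2 CPM. Mad2l1bp, whose product takes MAD2 out of the checkpoint complex, was at 6.87 to 28.6, 0 to 38.7, 74.2 and 79.8 to 157 CPM, so that these MII libraries lay above the GV libraries. It was called higher over both genotypes without the libraries that stand apart (1.65 ± 0.55, adjusted p = 0.011). Ube2s, the E2 enzyme that extends ubiquitin chains, was at 13.7 to 32.2, 0 to 19.3, 14.8 and 12.5 to 20.4 CPM and did not pass the filter in the stage fits with all libraries.

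Substrates of the complex did not move as one. Of 11, 7 were tested over both genotypes, and 3 were called higher and 0 lower, against 15.2% and 24.5% of all genes, with a median log2 fold change of 1.05 beside -0.35 for all genes tested. Ccnb1 (cyclin B1), the activator of CDK1 whose loss ends metaphase, rose by 3.51 ± 0.74 on the log2 scale (adjusted p = 0.00011). Tpx2, a spindle assembly factor, rose by 2.05 ± 0.71 (adjusted p = 0.015), and Gmnn (geminin), which blocks DNA replication licensing, by 2.51 ± 0.64 (adjusted p = 0.0011). Pttg1 (securin), the inhibitor of separase, was at 1389, 1306 and 1976 CPM in WT GV and spread from 0 to 2905 CPM in Nat10-ZcKO GV. In MII it was at 1231 CPM in replicate 1 of WT and 532 to 1697 CPM in Nat10-ZcKO. Its change of -0.46 ± 0.98 did not pass (adjusted p = 0.72). The kinases Plk1 (-0.77 ± 0.67, adjusted p = 0.35) and Aurka (0.08 ± 0.64, adjusted p = 0.92) and the S-phase and mitotic cyclin Ccna2 (1.05 ± 0.59, adjusted p = 0.14) did not pass either. Ccnb2 (cyclin B2) was at 41.2 to 93.6 CPM in WT GV and lower, at 14.8 CPM on 2 counts, in WT MII replicate 1, while Nat10-ZcKO had 21.7 to 58.0 CPM in GV and 47.7 to 90.4 CPM in MII. Bub1 was at 20.8 to 28.6 CPM in WT GV, 32.5 to 58.0 in Nat10-ZcKO GV, 37.1 for WT MII replicate 1 and 6.26 to 26.6 in Nat10-ZcKO MII. Neither passed the filter over both genotypes. With no filter over both genotypes, Ccnb1, Tpx2, Gmnn, Bub1b and Mad2l1 kept their direction and did not pass (adjusted p = 0.052, 0.23, 0.13, 0.054 and 0.13 in that order). The filter kept Ccnb1 and Gmnn mostly through the MII libraries. Without the libraries that stand apart, 4 of 7 substrates were called higher and 2 lower, where 33.9% and 36.3% of all 2185 genes were, with Ccna2 at 2.51 ± 0.51 (adjusted p = 0.00023), Plk1 at -1.20 ± 0.34 (adjusted p = 0.0035) and Pttg1 at -0.96 ± 0.33 (adjusted p = 0.013).

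Loss of Nat10 was not seen to move any member at either stage. In GV oocytes 4 members were tested and 0 were called, as were 0% of 1765 genes by edgeR (60 up and 25 down with unadjusted p under 0.05), and DESeq2 called 13 genes and 0 members. Log2 fold changes ran from -0.46 ± 0.54 for Anapc1 to 0.40 ± 0.54 for Fzr1, with Anapc7 at -0.26 ± 0.59 and Anapc2 at 0.25 ± 0.51. Without GV replicates 1 and 2 of Nat10-ZcKO, 6 members were tested and 0 called, against 2.01% of 3879 genes. There Cdc20 was at -0.72 ± 0.56 (adjusted p = 0.61). Leaving out Nat10-ZcKO GV replicate 3 instead called Cdc23 (3.49 ± 0.86, adjusted p = 0.028) and 385 genes of 1858, with only the 2 libraries of few oocyte markers left in that group. In MII oocytes 5 members were tested and 0 called, against 0.191% of 2097 genes, or 0.205% of 2924 genes without WT MII replicate 2. DESeq2 called 34 genes and 0 members. Cdc20 was at 0.75 ± 1.23, and at 0.26 ± 0.50 without that library, and Cdc27 was at 0.17 ± 0.94 and -0.10 ± 0.57. Anapc1, Anapc2 and Anapc7 did not pass either. With WT MII replicate 2, which has no count on the members, as the only WT library, 3 members (Cdc20, Cdc27 and Anapc1) and 1451 of 2809 genes were called. With SEs of 0.51 to 0.59 in GV and 0.88 to 1.23 in MII, an effect of the genotype of about 1 on the log2 scale was not detectable at this depth.

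Whether the stage change of a member differed between genotypes was tested by the interaction term over all 11 libraries. Of 9 members tested 0 were called, against 0.906% of 3863 genes, and 6 were tested and 0 called without the libraries that stand apart, where 0% of 4029 genes passed by edgeR (158 up and 105 down with unadjusted p under 0.05). With all libraries DESeq2 called 54 genes and 0 members. The change of Cdc20 was larger in Nat10-ZcKO by 2.48 ± 1.70 (adjusted p = 0.81) and, without those libraries, by 0.89 ± 0.76 (adjusted p = 0.84). For Cdc27 the values were 1.73 ± 1.53 and 0.71 ± 1.01, and for Fzr1 1.38 ± 1.68 and 0.68 ± 1.30. Without WT MII replicate 1, Cdc20, Cdc27 and Anapc1 and 948 of 5532 genes were called. The median over all genes tested was 0.96 with all libraries and 0.20 without those that stand apart.

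Genes with a pattern like that of Cdc20, the member with the most counts, were sought among 2197 genes with at least 100 counts, by Pearson's r of log2(CPM + 10) over the 11 libraries. The most alike were Plpp5 (r = 0.976), Slc4a7 (r = 0.973) and Eif2ak4 (r = 0.968). The value describes these libraries, which share stage, depth and the library at 0.

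In acRIP-seq, Cdc20 was the member that stood out. The totals over genes were 970997 counts for anti-ac4C and 116232 for anti-IgG, and neither had a replicate, so values hold for these 2 libraries. Cdc20 had 80 counts (82.4 CPM) with anti-ac4C and 0 with anti-IgG, where a count of 0 allows up to 25.8 CPM, and the exact lower 95% bound of the ratio was 2.54. Cdc23 had 38 counts against 0, with a lower bound of 1.17. The other members had ratios of anti-ac4C to anti-IgG CPM of 0.51 to 1.78. Fzr1 was at 0.60 (0.43 to 0.84, exact 95% interval) on 225 and 45 counts, and Anapc2 at 0.51 (0.34 to 0.80) on 124 and 29 counts. For both of these the interval lay below 1. Cdc27 was at 0.70 (0.41 to 1.24), Anapc1 at 0.92 (0.63 to 1.39), Anapc10 at 1.08 (0.26 to 9.57), Anapc4 at 1.15 (0.77 to 1.80), Anapc5 at 1.48 (0.96 to 2.40) and Anapc7 at 1.78 (0.91 to 3.98). By the rule of a ratio over 2 with at least 1 CPM, in which a gene with no anti-IgG count passes, 2 of 10 members were called, against 53.3% of 11883 genes. With the lower bound over 2, Cdc20 alone was called, against 3.69% of those genes. The median ratio of the 4680 genes with at least 50 counts was 1.27. Cdc20 overlaps Elovl1 at its locus and shares much of its coding sequence with other places in the genome, as given above, and the part of either in its acRIP-seq counts was not tested.

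**Figure D4:**
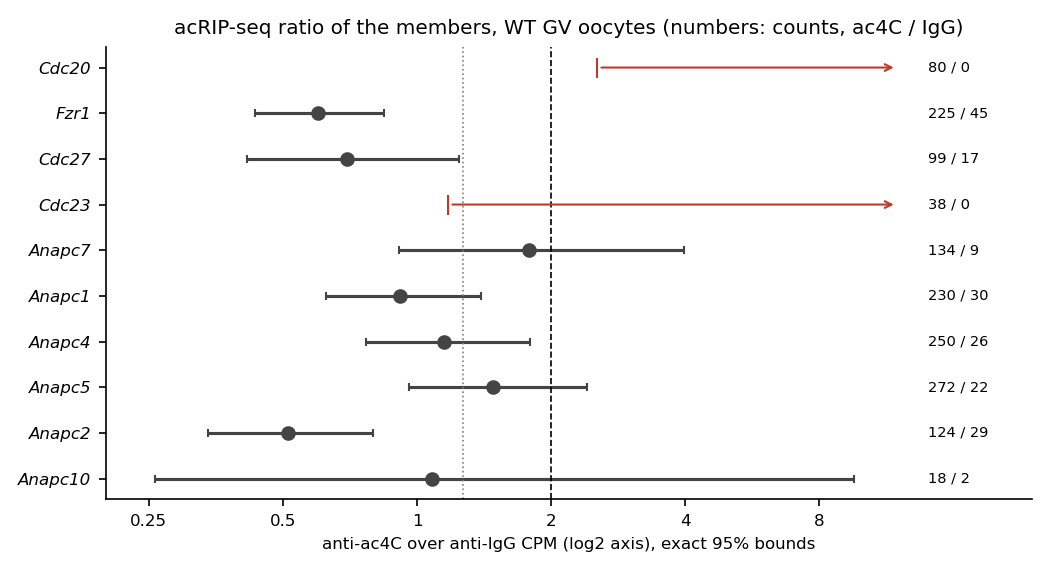
Ratio of anti-ac4C to anti-IgG CPM for the members (x axis, log2 scale) with exact 95% bounds, the counts at the right, a dashed line at 2 and a dotted line at the median of all genes with at least 50 counts (1.27). Cdc20 and Cdc23, with no anti-IgG count, are drawn from their lower bounds of 2.54 and 1.17 as arrows, and the bound of Cdc20 lies past the dashed line.

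Among the genes around the complex, Bub3, which carries checkpoint proteins to kinetochores, passed the lower bound too, with 145 counts against 2 (ratio 8.68, lower bound 2.36). Bub1b was at 1.63 (lower bound 1.33) on 1365 and 100 counts. Ccnb1 was at 0.43 on 194 and 54 counts, and Fbxo43 at 2.03 (lower bound 1.004) on 136 and 8 counts. By the stricter rule 0 of 6 other subunits, 1 of 11 E2 enzymes, inhibitors and checkpoint genes and 0 of 11 substrates were called.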

How the data were processed

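Ribo-seq of 11 oocyte libraries and acRIP-seq of 2 libraries were analysed. The authors deposited whole-number counts per gene, on coding sequence for Ribo-seq and on protein-coding genes for acRIP-seq, 1 library a file and without normalization. The submitters' processing notes name cutadapt, STAR, HTSeq and mm10. Versions, rRNA removal, PCR duplicates, strand and multiply mapped fragments are not given in the sources used here. Footprints were poly(A)-tailed and amplified. Fragments on no feature, 17.1% for anti-ac4C and 46.7% for anti-IgG, stayed out of totals. Of 22442 genes, 22399 matched GENCODE M21, which gave the coding lengths for TPM, and 83 had none.

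Counts were tested with edgeR 4.0.16 in R 4.3.3 (filterByExpr, TMM, glmQLFit, glmQLFTest, prior count 0.125, Benjamini-Hochberg adjusted p under 0.05) over all genes. SEs were taken as the absolute log2 fold change over the root of F. DESeq2 1.42.0, scaling by library size, other filters, a replicate block, left-out libraries and 3 doubtful libraries left out together were alternatives. Levels, acRIP-seq ratios and intervals were computed with Python 3.11.15 and scipy 1.17.1. The fits were tested on simulated data. A fit with 1 library in an arm assumes that it varies like the other groups. Named genes are the members, Nat10, listed genes with at least 20 RPF counts or a called change, and the 3 genes most like Cdc20. The members and lists were chosen with earlier results of these data known.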

Additional observations from a re-analysis of the deposited data

How the results depend on the processing

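The calls depended on single libraries and on the filter. In GV, Nat10-ZcKO against WT called 13 genes with DESeq2, 41 with no filter, 78 without the doubtful libraries and 0 to 385 when 1 library was left out (0 to 1 member). In MII it called 34 with DESeq2, 24 with scaling by library size, 17 with at least 10 counts, 0 with no filter or with a replicate block, and 0 to 1451 when 1 library was left out (0 to 3 members). For MII against GV in WT, the calls were 925 by library size, 35 with at least 10 counts, 0 with no filter or with the block, 1464 without the doubtful libraries and 39 to 1902 when 1 library was left out. Members called there were 2, 0, 0, 3 and 0 to 5 in that order, and 0 with DESeq2. In Nat10-ZcKO the block gave 125 genes and 1 member, leaving out the doubtful libraries 1445, and leaving out 1 library 0 to 778 and 0 to 3 members. Over both genotypes the calls were 1986 with DESeq2 (5 members), 264 with no filter (0 members), 1534 without the doubtful libraries and 357 to 1236 when 1 library was left out (1 to 3 members), and 1 member with at least 10 counts. The interaction called 54 with DESeq2, 10 with no filter, 17 with at least 10 counts, 8 with the block, 0 without the doubtful libraries and 0 to 948 when 1 library was left out (0 to 3 members). The ac4C rule called 10786 genes and 10 members unscaled, 3844 with at least 10 counts, and 439 genes and 1 member with the lower bound. The cause was not tested.

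Of the members' log2 fold changes given above, 90 of the 113 values under another tool, scaling, filter, block or without the doubtful libraries kept their sign and their side of the threshold. When 1 library was left out, 115 of 138 did. A fit whose filter dropped the member gave no value and is in neither total. Among these are Fzr1 over both genotypes when a GV library other than WT GV replicate 1 was left out, and Cdc20 in WT without GV replicate 2. Of the 90, 20 were genotype changes in GV, 11 genotype changes in MII and 18 interactions, none called in the main fits. For the stage change in WT, 6 values kept both, 4 lost their call and 2 gained one. The sign turned for Anapc2 between genotypes in GV (-0.031 with DESeq2, -0.17 with no filter, -0.13 with at least 10 counts), Fzr1 there (-0.031 with no filter, and -0.0097 to 0.51 when 1 library was left out), Cdc27 between genotypes in MII (-0.10 without WT MII replicate 2, highest 7.55 when 1 library was left out), Anapc1 between stages with DESeq2 (-0.13), and Cdc20 between stages in WT (-6.66 to 2.15 when 1 library was left out). Whether replicate numbers pair the libraries could not be told. Correlations of deviations from the group mean ran from -0.04 to 0.15 between libraries with the same number. Between libraries with other numbers they ran from -0.15 to 0.09. With so few libraries a group, the deviations within a group depend on each other, so these values cannot decide it. With the replicate block, Cdc20 between stages stayed called in Nat10-ZcKO (3.46, adjusted p = 0.049), and Cdc27 (2.93, adjusted p = 0.060) and Fzr1 (-2.35, adjusted p = 0.095) did not. In WT the change of Cdc20 fell to 0.95 with the block (adjusted p = 1.0), 0.90 with DESeq2 (adjusted p = 0.67), 1.02 with no filter (adjusted p = 0.76) and 1.18 with at least 10 counts (adjusted p = 0.69), and was called in none of these. Cdc20 led the members in MII by CPM and by pooled counts as well, while in WT GV Anapc2 led by CPM.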
